A study of Mus musculus with 6 samples.

Results

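The interferon-inducible GTPases described here are 10 mouse genes of 2 families. The guanylate-binding proteins (GBPs) are Gbp2, Gbp3, Gbp4, Gbp6 and Gbp7, and the immunity-related GTPases (IRGs) are Igtp, Irgm1, Irgm2, Iigp1 and Tgtp1. They were chosen by gene symbol, with earlier results of these data known, and all 10 are among the 22298 genes listed in each library. RNA was sequenced from thymocytes that the sample names call double-negative and the extraction protocol calls DN2, sorted from thymi of untreated C57BL/6 mice. Toxf/fPdcd1Cre mice carry Tox alleles flanked by recombination sites and a Cre recombinase that the genotype names after Pdcd1 (the PD-1 gene, an inhibitory receptor of T cells), and Toxf/f mice carry the same Tox alleles. Each genotype has 3 samples, of which replicates 1 and 2 came from mice of 3 weeks and replicate 3 from mice of 4 weeks. The files of Toxf/f replicates 1 and 2 hold identical values, so they were counted as 1 library, called the shared Toxf/f library here, and 3 Toxf/fPdcd1Cre libraries were compared with 2 Toxf/f libraries. No sample with the Cre alone was analysed here, so carrying the Cre and losing Tox cannot be told apart. The ages place replicate 3 of a genotype in other mice than replicates 1 and 2. For samples of the same age the labels do not state this, and p-values measure the spread between these libraries.

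GBPs and IRGs are GTP-hydrolysing proteins of cell-autonomous immunity. Interferon-gamma binds its receptor, the kinases JAK1 and JAK2 pass the signal on, and transcription factors, IRF1 among them, act on GAS and ISRE elements in the promoters of these genes. The proteins gather on vacuoles that hold microbes such as Toxoplasma and damage their membranes. Within the IRGs, the regulators Igtp, Irgm1 and Irgm2 (the GMS proteins, named for a motif) keep the effectors Iigp1 and Tgtp1 (the GKS proteins) inactive on the membranes of the cell's own organelles.

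The promoters of 7 of the 10 genes were read from RefSeq (GRCm38.p6), each running from 250 bases before to 50 bases after an annotated start. They are shown because GAS and ISRE letters mark elements through which interferons are known to act. Gbp4, Gbp6 and Iigp1 had no entry that was used. Each line gives 70 bases, 5′ to 3′ on the strand of the gene, with the letters of either motif in capitals. The GAS motif was searched as TTCNNNGAA, which reads the same on both strands. The ISRE motif was searched as GAAANNGAAA, or TTTCNNTTTC on the other strand. Overlapping ISRE matches run together in Gbp3 and Irgm1.
Gbp2 (chr3:142620574-142620643, plus strand): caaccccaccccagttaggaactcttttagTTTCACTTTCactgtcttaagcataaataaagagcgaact
Gbp3 (chr3:142559972-142560041, plus strand): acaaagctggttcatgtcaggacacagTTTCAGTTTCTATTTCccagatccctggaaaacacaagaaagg
Gbp7 (chr3:142530226-142530295, plus strand): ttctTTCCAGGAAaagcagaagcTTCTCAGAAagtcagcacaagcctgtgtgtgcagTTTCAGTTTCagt
Irgm1 (chr11:48871408-48871477, minus strand): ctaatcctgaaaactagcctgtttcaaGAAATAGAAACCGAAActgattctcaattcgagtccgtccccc
Igtp (chr11:58199486-58199555, plus strand): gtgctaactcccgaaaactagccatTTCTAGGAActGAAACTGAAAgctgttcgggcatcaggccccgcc
Irgm2 (chr11:58214877-58214946, plus strand): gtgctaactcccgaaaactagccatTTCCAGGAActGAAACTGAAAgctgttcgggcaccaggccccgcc
Tgtp1 (chr11:48992290-48992359, minus strand): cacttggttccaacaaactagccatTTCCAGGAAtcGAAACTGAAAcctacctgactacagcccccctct

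Every one of the 7 genes had an ISRE match in a promoter, while 3.44% of all 32851 RefSeq promoters of 300 bases hold one. A GAS match stood in 4 of the 7 genes, against 8.3% of all promoters. Gbp7, Igtp, Irgm2 and Tgtp1 had both motifs, which 0.454% of all promoters share. In Igtp, Irgm2 and Tgtp1 the GAS letters came first and the ISRE letters followed after a gap of 2 bases, making a block of 21 bases. Only 5 of the 32851 promoters hold that block, the remaining 2 being those of the family genes Tgtp2 and Gm12185. The spacing was set after these promoters had been seen. The windows of Igtp and Irgm2 shared 68 of 70 bases, those of Igtp and Tgtp1 shared 42, and those of Irgm2 and Tgtp1 shared 44. Measured from the annotated start, the ISRE letters lay at -59 to -50 in Gbp2, -53 to -44 in Gbp7, -34 to -25 in Igtp, -64 to -55 in Irgm2 and -77 to -68 in Tgtp1. Gbp3 has a second annotated start whose promoter held neither motif. A match of letters is a description and does not show that a factor binds there.

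**Figure D1:**
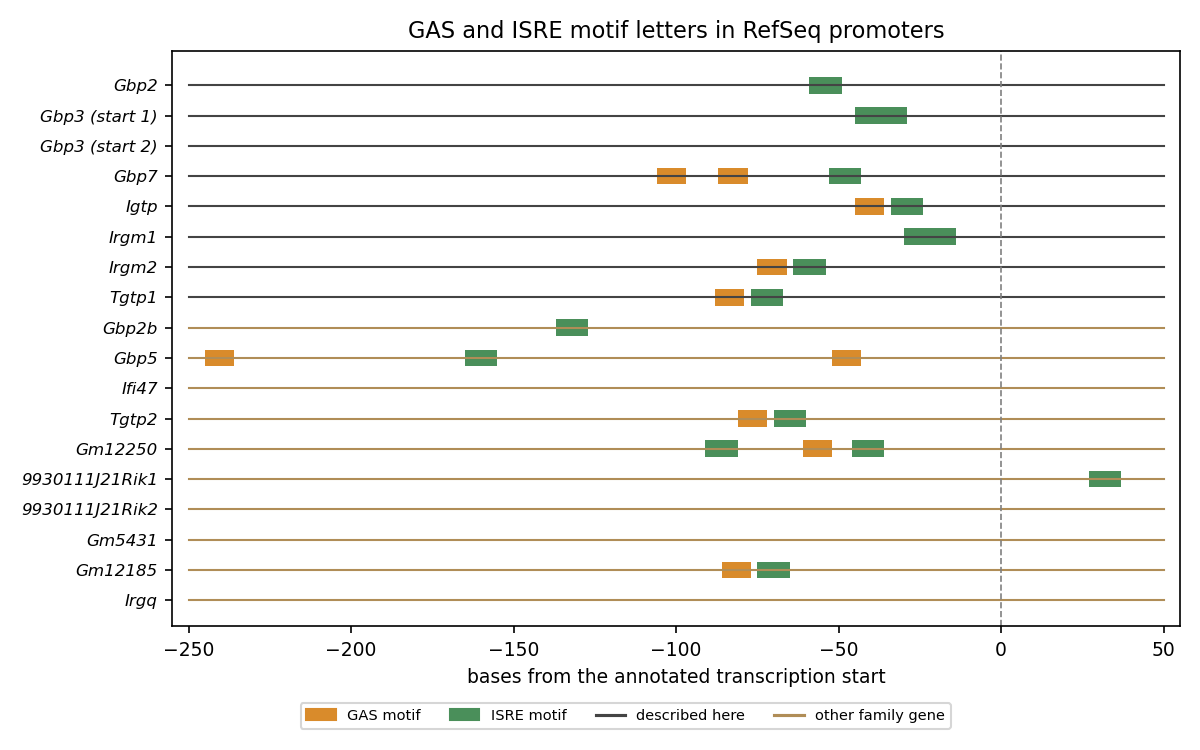
Positions of the GAS (orange) and ISRE (green) motif letters in RefSeq promoters, in bases from the annotated transcription start (dashed line), with 1 line per promoter of the genes described (dark) and of other family genes (tan). In Igtp, Irgm2, Tgtp1, Tgtp2 and Gm12185 the GAS letters stand 2 bases before the ISRE letters.

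In Toxf/fPdcd1Cre thymocytes all 10 GTPase genes lay lower than in Toxf/f thymocytes, in both families. The effector gene Iigp1 fell 2.37-fold, the regulator gene Irgm1 fell 1.70-fold and Gbp2 fell 1.63-fold, and these 3 passed the test. The other 7 stood 1.21-fold to 1.70-fold lower and did not pass it. Passing means an adjusted p under 0.05 (edgeR's quasi-likelihood test, Benjamini-Hochberg adjustment over 14121 genes). Of these, 1.51% were lower, 0.135% were higher and 1.64% were changed in either direction, so 3 of 10 stood above the background share. The 10 genes were chosen with earlier results of these data known. The shares given here are therefore a description and no separate evidence. The median log2 fold change of the 10 genes was -0.67 (range -1.24 to -0.27), beside a median of 0.03 over all genes tested. In all 10 genes every Toxf/fPdcd1Cre library lay below both Toxf/f libraries, in CPM (counts scaled to library size) and in FPKM (fragments per unit of gene length and of library size). Of all tested genes 13.5% show that order in CPM, and 26.2% do not overlap in either direction. Fitted fold changes were below 0 in all 10, against 45.2% of all genes, and at an unadjusted p under 0.05 there were 9 of the 10 lower, against 7.26% (10.3% in either direction). All 10 passed the filter on low counts, and their lowest estimated count was 197.

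The number of the 10 that passed depended on which library was in the fit. It was 6 without Toxf/fPdcd1Cre replicate 1 and 2 without replicate 2, where 171 of 14007 tested genes were lower and 30 higher. It was 0 without Toxf/fPdcd1Cre replicate 3, without the shared Toxf/f library or without Toxf/f replicate 3. In each of these fits fewer of all tested genes were called than with every library included. Without Toxf/fPdcd1Cre replicate 3, 103 of 14060 tested genes were lower and 11 higher. Replicate 1 stood apart from the other Toxf/fPdcd1Cre libraries in other respects. It held 1 estimated count of Ddx3y, a gene of chromosome Y, where the other 4 libraries held 843 to 1354. On the first principal component (49.3% of the variance) it lay at -4.49, between the remaining Toxf/fPdcd1Cre libraries at 28.5 and 30.1 and the Toxf/f libraries at -20.5 and -33.6. Without it the median of the 10 genes was -0.81, and 4.21% of 13904 tested genes were lower and 0.144% higher. The part of this library in the results was not tested further. In bulk RNA, fewer cells that transcribe a gene and less RNA per cell cannot be told apart.

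**Figure D2:**
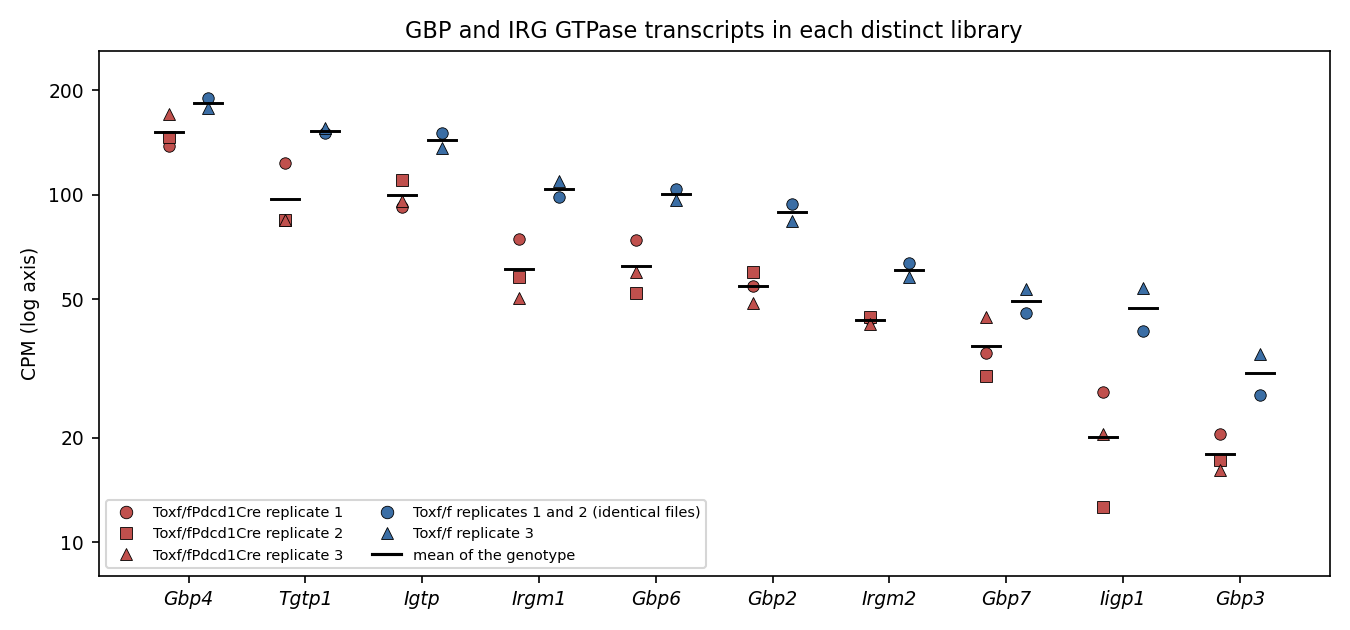
CPM (log axis) of the 10 GTPase genes in each distinct library, Toxf/fPdcd1Cre in red and Toxf/f in blue, with the mean of each genotype as a bar. In every gene the 3 red points lie below both blue points. On the log axis the means lie most widely apart in Iigp1 (20.04 against 47.3 CPM) and least in Gbp4 (152 against 184 CPM).

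Among the GBPs, Gbp2 is a large GTPase that is needed in mice to restrain Toxoplasma. Gbp2 (ENSMUSG00000028270, chromosome 3, 142620602 to 142638008, plus strand, GRCm38) had 54.8, 59.9 and 48.9 CPM in Toxf/fPdcd1Cre replicates 1 to 3, against 93.9 and 84.3 CPM in the shared Toxf/f library and replicate 3. The Toxf/fPdcd1Cre libraries were close to each other and far from both Toxf/f libraries. Its log2 fold change was -0.71 ± 0.138 (SE) and its adjusted p was 0.0271 (edgeR). It passed in 15 of 19 alternatives, more often than any of the other 9 genes. It did not pass without the shared Toxf/f library (adjusted p = 0.280, edgeR), without Toxf/f replicate 3 (adjusted p = 0.209) or without Toxf/fPdcd1Cre replicate 3 (adjusted p = 0.119).

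Gbp3 and Gbp7 are its neighbours in the cluster of chromosome 3. Gbp3 (142560026 to 142573209, plus strand) had 20.5, 17.2 and 16.2 CPM in Toxf/fPdcd1Cre libraries, against 26.4 and 34.7 CPM in Toxf/f libraries. Its log2 fold change of -0.77 ± 0.176 (SE) was larger in size than that of Gbp2, its Toxf/f libraries were further apart, and it missed the threshold (adjusted p = 0.0578, edgeR). Gbp7, which takes part in the attack on the Toxoplasma vacuole in mice, spans 142530342 to 142550149 on the plus strand. It had 35.05, 30.1 and 44.6 CPM in Toxf/fPdcd1Cre libraries, against 45.5 and 53.6 CPM in Toxf/f libraries. Toxf/fPdcd1Cre replicate 3 came within 1 CPM of the shared Toxf/f library, and the log2 fold change of -0.44 ± 0.173 (SE) did not pass (adjusted p = 0.376, edgeR).

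Gbp4 and Gbp6 belong to the cluster of chromosome 5. Gbp4 (105115767 to 105139586, minus strand) was the GTPase gene with the smallest difference. It had 138, 147 and 171 CPM in Toxf/fPdcd1Cre libraries, against 189.9 and 178 CPM in Toxf/f libraries. The highest Toxf/fPdcd1Cre library lay just under the lowest Toxf/f library, and the log2 fold change was -0.27 ± 0.136 (SE; adjusted p = 0.536, edgeR). Gbp6 (105270702 to 105293698, minus strand) had 74.3, 52.3 and 60.0 CPM in Toxf/fPdcd1Cre libraries, against 104 and 96.5 CPM in Toxf/f libraries. The genotypes were well separated, and the log2 fold change of -0.69 ± 0.156 (SE) missed the threshold narrowly (adjusted p = 0.0548, edgeR). Counting limits both genes: Gbp4 overlaps Gbp8 and Gbp9, and Gbp6 overlaps Gm43302, on the same strand, and their estimated counts were not whole in any of the 5 libraries. With each gene summed with its overlapping or similar genes, a comparison added after the data were seen, Gbp6 with Gbp10 and Gm43302 passed (log2 fold change -0.78, adjusted p = 0.0301, edgeR) and Gbp4 with Gbp8 and Gbp9 stood at -0.26.

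The regulators of the IRG family lie on chromosome 11. Irgm1, whose loss in mice weakens resistance to intracellular bacteria, spans 48861968 to 48871683 on the minus strand. It had 74.7, 58.1 and 50.6 CPM in Toxf/fPdcd1Cre libraries, against 98.9 and 109 CPM in Toxf/f libraries. Replicate 1 was the highest Toxf/fPdcd1Cre library, and none reached the Toxf/f libraries. Its log2 fold change was -0.77 ± 0.165 (SE; adjusted p = 0.0407, edgeR). It passed in 10 of 19 alternatives. Without Toxf/fPdcd1Cre replicate 2 or 3 the adjusted p was 0.0656 and 0.145 (edgeR), and without the shared Toxf/f library or Toxf/f replicate 3 it was 0.227 and 0.448.

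Igtp and Irgm2, whose promoter windows above differ at few bases, overlap on the plus strand by the GENCODE coordinates. The RefSeq promoter window of Irgm2 lies inside its GENCODE span and past the end of Igtp. These annotations thus place the start of Irgm2 differently, and the overlap depends on which is used. Igtp (58199556 to 58207591) had 92.5, 110.2 and 96.1 CPM in Toxf/fPdcd1Cre libraries, against 150.3 and 137 CPM in Toxf/f libraries. Irgm2 (58199618 to 58222782) had 43.8, 44.5 and 42.5 CPM in Toxf/fPdcd1Cre libraries, against 63.6 and 58.2 CPM in Toxf/f libraries. The Toxf/fPdcd1Cre values of Irgm2 were nearly equal. The log2 fold changes were -0.53 ± 0.131 (SE) for Igtp and -0.48 ± 0.130 (SE) for Irgm2, and neither passed (adjusted p = 0.0850 and 0.120, edgeR). Their counts were not whole in all 5 libraries, and their sum stood at -0.51.

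Of the effectors, Iigp1 (chromosome 18) showed the largest difference of the 10 genes. It had 27.1, 12.6 and 20.5 CPM in Toxf/fPdcd1Cre libraries, against 40.7 and 54.0 CPM in Toxf/f libraries. Replicate 2 was the lowest and replicate 1 the highest of the Toxf/fPdcd1Cre libraries. The log2 fold change was -1.24 ± 0.252 (SE; adjusted p = 0.0318, edgeR), between -1.56 and -0.99 over 19 alternatives, of which 11 passed. It did not pass without the shared Toxf/f library (adjusted p = 0.160, edgeR), without Toxf/f replicate 3 (adjusted p = 0.470) or without Toxf/fPdcd1Cre replicate 3 (adjusted p = 0.0835).

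Tgtp1, the other effector, spans 48985327 to 48994172 on the minus strand of chromosome 11. It had 123, 84.7 and 84.5 CPM in Toxf/fPdcd1Cre libraries, against 150.8 and 155 CPM in Toxf/f libraries. Replicate 1 stood well above replicates 2 and 3, which were nearly equal. The log2 fold change was -0.65 ± 0.169 (SE; adjusted p = 0.0999, edgeR), and without Toxf/fPdcd1Cre replicate 1 it was -0.90 and passed (adjusted p = 0.00576). Tgtp1 has a close copy, Tgtp2, and overlaps Gm12185 on the same strand and Olfr56 on the other, so its estimated counts, not whole in all 5 libraries, are uncertain. Summed with Tgtp2, it passed (log2 fold change -0.83, adjusted p = 0.0312, edgeR).

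**Figure D3:**
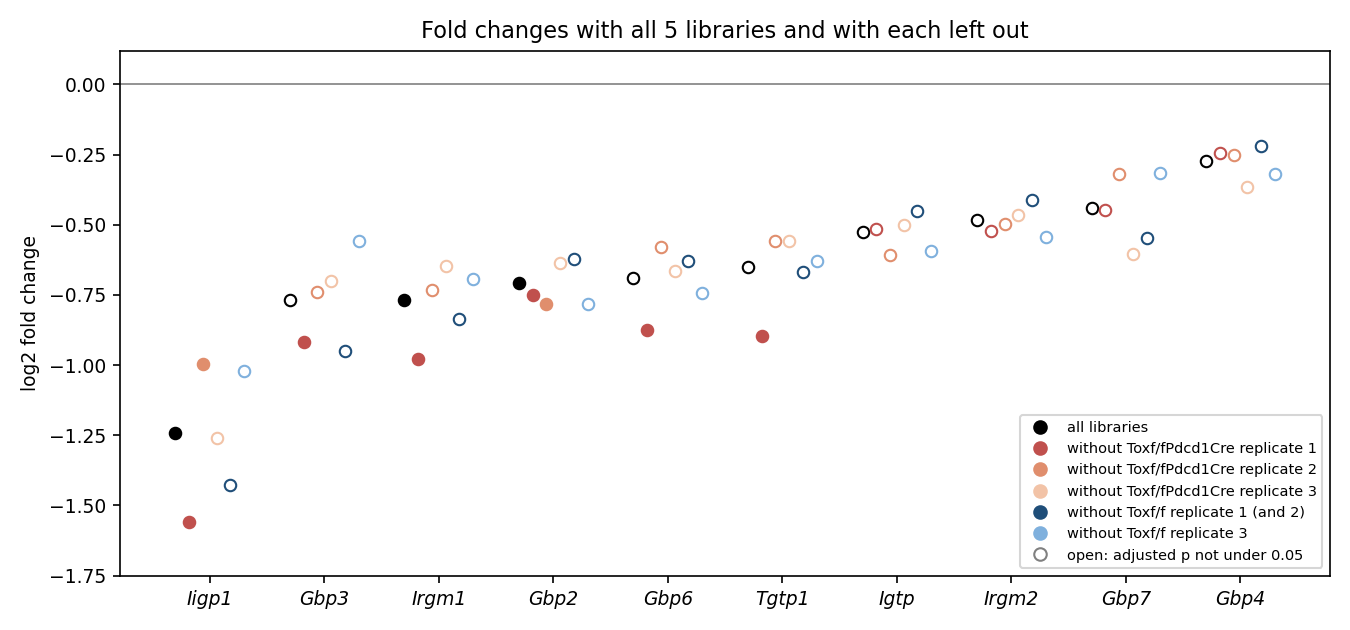
Log2 fold changes of the 10 GTPase genes, Toxf/fPdcd1Cre over Toxf/f, with all 5 libraries (black) and with each library left out; filled points have an adjusted p under 0.05 in edgeR's quasi-likelihood test. All points lie below 0, and filled points are most frequent without Toxf/fPdcd1Cre replicate 1, where 6 genes passed.

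The levels of different genes can be compared per length, in FPKM. In Toxf/fPdcd1Cre libraries the order of mean FPKM was Gbp4, Igtp, Tgtp1, Irgm1, Gbp2, Gbp6, Irgm2, Gbp7, Gbp3 and Iigp1. Of the 9 neighbouring pairs in that order, 6 had overlapping library values. In Toxf/f libraries the order was Igtp, Gbp4, Tgtp1, Irgm1, Gbp2, Gbp6, Irgm2, Iigp1, Gbp3 and Gbp7, and 3 of the 9 neighbouring pairs overlapped, those among Irgm2, Iigp1, Gbp3 and Gbp7. Gbp4 averaged 54.5 ± 6.32 FPKM (SD, n = 3) in Toxf/fPdcd1Cre libraries and 65.5 ± 3.15 FPKM (SD, n = 2) in Toxf/f libraries. Igtp averaged 48.9 ± 3.79 FPKM (SD, n = 3) in Toxf/fPdcd1Cre libraries and 73.4 ± 3.87 FPKM (SD, n = 2) in Toxf/f libraries. At the low end Iigp1 averaged 7.03 ± 2.82 FPKM (SD, n = 3) in Toxf/fPdcd1Cre libraries and 16.8 ± 4.13 FPKM (SD, n = 2) in Toxf/f libraries.

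The summed FPKM of the 10 genes was 265, 233 and 231 in Toxf/fPdcd1Cre libraries and 369 and 383 in Toxf/f libraries. The GBPs made up 114, 106 and 114 FPKM of this in Toxf/fPdcd1Cre libraries and 155 and 162 FPKM in Toxf/f libraries. The IRGs made up 151, 128 and 117 FPKM in Toxf/fPdcd1Cre libraries and 214 and 222 FPKM in Toxf/f libraries. In neither family did the sums of the genotypes overlap. The make-up also differed, though these shares were not tested: Gbp4 held 18.8% to 26.7% of the summed FPKM in Toxf/fPdcd1Cre libraries and 17.2% to 17.7% in Toxf/f libraries. Iigp1 held 1.82% to 3.73% in Toxf/fPdcd1Cre libraries and 3.76% to 5.14% in Toxf/f libraries.

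The families had similar medians, and the difference between them was not tested. Of the 5 GBPs 1 passed, with a median log2 fold change of -0.69, and of the 5 IRGs 2 passed, with a median of -0.65. The 3 IRG regulators had a median of -0.53 and the 2 effectors of -0.95. Within Toxf/fPdcd1Cre no library was always the highest: replicate 1 was highest in 5 genes, replicate 2 in Gbp2, Igtp and Irgm2, and replicate 3 in Gbp4 and Gbp7. Each Toxf/f library was the higher in 5 genes.

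Age was compared within its own samples, without a test. At 3 weeks, with 2 Toxf/fPdcd1Cre libraries and the shared Toxf/f library, all 10 genes were lower in Toxf/fPdcd1Cre, with log2 ratios from -1.04 in Iigp1 to -0.41 in Gbp4 and a median of -0.55. At 4 weeks, with 1 library per genotype, all 10 were again lower, from -1.40 in Iigp1 to -0.05 in Gbp4, with a median of -0.74. The median over all tested genes was 0.01 at 3 weeks and 0.03 at 4 weeks. With age as a covariate 1 of the 10 genes passed.

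The wider GBP and IRG families also held genes that fell, and of these Gbp10 fell by more than any of the 10. Of 18 other family genes listed, 17 were tested, 4 passed as lower, 0 passed as higher, and the median log2 fold change was -1.05. Without Toxf/fPdcd1Cre replicate 1, 9 passed. Gbp10, a GBP of the chromosome 5 cluster, had 2.46, 1.49 and 2.04 CPM in Toxf/fPdcd1Cre libraries, against 9.15 and 8.24 CPM in Toxf/f libraries. All 3 Toxf/fPdcd1Cre values were far under both Toxf/f values, and its log2 fold change was -2.12 ± 0.307 (SE; adjusted p = 0.00528, edgeR), though it overlaps Gm43302 and its counts were not whole in any library.

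Gbp5, which promotes inflammasome assembly in mouse macrophages, had 13.6, 15.8 and 14.4 CPM in Toxf/fPdcd1Cre libraries, against 27.2 and 33.2 CPM in Toxf/f libraries. Its Toxf/fPdcd1Cre libraries were tightly grouped, and it fell 2.07-fold (adjusted p = 0.00811, edgeR). Tgtp2, the near copy of Tgtp1, had 79.7, 64.8 and 53.3 CPM in Toxf/fPdcd1Cre libraries, against 127 and 146 CPM in Toxf/f libraries. It fell 2.08-fold (adjusted p = 0.00811, edgeR), with the same uncertainty of counting as Tgtp1. Ifi47, an IRG of the effector type, had 98.6, 113 and 90.2 CPM in Toxf/fPdcd1Cre libraries, against 180.2 and 177 CPM in Toxf/f libraries. It fell 1.78-fold (adjusted p = 0.00923, edgeR), and its RefSeq promoter held neither motif.

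The other 13 tested family genes did not pass. Gbp9 had an adjusted p of 0.0678 (edgeR) at a log2 fold change of -0.59. Gvin1, a very large interferon-inducible GTPase, stood at -0.25 (adjusted p = 0.804, edgeR). Less abundant family genes had larger but less certain values: Gm12185 at -1.47 (adjusted p = 0.123), Gm4841 at -2.38 (adjusted p = 0.153), Gm5431 at -1.38 (adjusted p = 0.1798), Gm4951 at -1.14 (adjusted p = 0.241), Gbp2b at -1.26 (adjusted p = 0.675) and F830016B08Rik at -0.82 (adjusted p = 0.814). 9930111J21Rik1 and 9930111J21Rik2 stood at -1.06 and -0.86 (adjusted p = 0.154 and 0.199, edgeR). 9930111J21Rik1 overlaps Gm12185 and Psme2b on the same strand and Olfr56 on the other. 9930111J21Rik2 overlaps Olfr56 only, on the other strand. The counts of both were not whole in any library, so they are uncertain. Gbp8 and Gbp11 were near 0 at -0.08 and -0.05, with a sign that changed between alternatives. Irgq, an atypical IRG that lacks motifs for binding GTP, stood at 0.13.

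**Figure D4:**
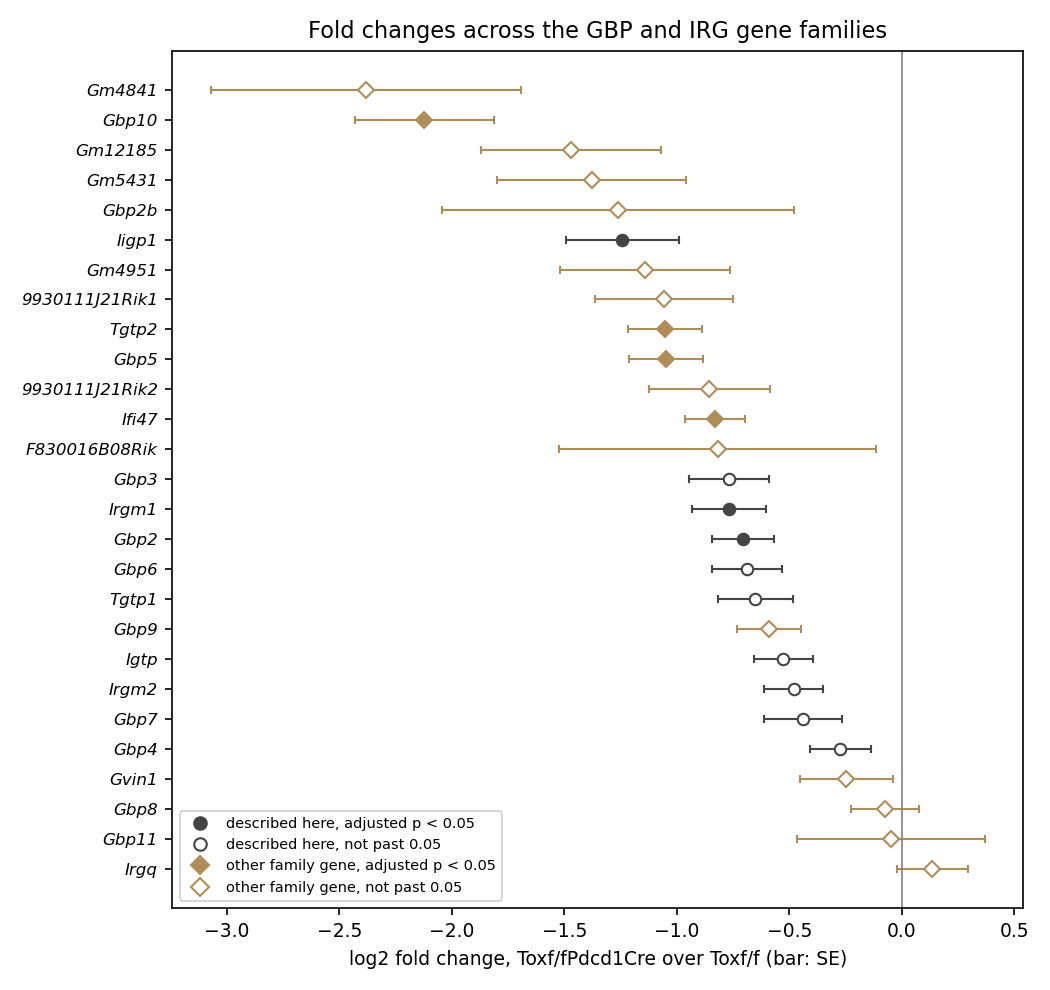
Log2 fold changes of tested GBP and IRG genes, Toxf/fPdcd1Cre over Toxf/f, with SE bars; circles are the 10 genes described, diamonds are other family genes, and filled symbols passed at an adjusted p of 0.05. Gbp10 lies furthest left of the filled symbols at -2.12, and Irgq is the single gene above 0.

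Upstream of the GTPases, the ligands were scarce. Ifng, the gene of interferon-gamma, had 6, 6 and 0 estimated counts in Toxf/fPdcd1Cre libraries, against 5 and 5 in Toxf/f libraries. Of the other 8 interferon genes listed, Ifnl3 had 0, 0 and 1 counts in Toxf/fPdcd1Cre libraries against 6 and 1 in Toxf/f libraries, Ifnl2 had 1 count in Toxf/f replicate 3, and the other 6 had none. None of the 9 passed the filter, so none was tested, and at this depth no difference was detectable.

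The receptors and kinases did not pass. Ifngr1, the ligand-binding chain of the interferon-gamma receptor, had 470, 469 and 441 CPM in Toxf/fPdcd1Cre libraries, against 459 and 332 CPM in Toxf/f libraries, which overlap. Ifngr2, its signalling chain, had 75.5, 65.7 and 60.1 CPM in Toxf/fPdcd1Cre libraries, against 94.8 and 98.6 CPM in Toxf/f libraries. The genotypes did not overlap in Ifngr2, whose log2 fold change was -0.53 ± 0.137 (SE; adjusted p = 0.101, edgeR), and it passed without Toxf/fPdcd1Cre replicate 1 (adjusted p = 0.0217). Of the 6 receptor genes tested none passed, and the median was -0.17. Jak1 stood at -0.06 and Jak2 at -0.16 (adjusted p = 0.956 and 0.810, edgeR), and the sign of Jak1 changed in 2 alternatives.

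Of the 11 kinases and transcription factors tested, 2 fell. Nlrc5, the transactivator of MHC class I genes and itself induced by interferon-gamma, had 27.5, 25.5 and 20.2 CPM in Toxf/fPdcd1Cre libraries, against 53.7 and 79.8 CPM in Toxf/f libraries. It fell 2.73-fold (adjusted p = 0.00297, edgeR). Irf1 had 79.7, 80.5 and 75.5 CPM in Toxf/fPdcd1Cre libraries, against 105 and 112 CPM in Toxf/f libraries. The genotypes of Irf1 did not overlap, and its log2 fold change of -0.46 ± 0.123 (SE) did not pass (adjusted p = 0.109, edgeR). The median of the 11 was -0.30, and 3 passed without Toxf/fPdcd1Cre replicate 1.

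Of 8 inhibitors of interferon signalling 1 fell. Usp18, which strips ISG15 from proteins and restrains the type I interferon receptor, had 32.2, 24.2 and 18.4 CPM in Toxf/fPdcd1Cre libraries, against 49.6 and 48.6 CPM in Toxf/f libraries. It fell 1.97-fold (adjusted p = 0.0309, edgeR). The median of the 8 was -0.03, close to that of all genes tested.

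Among other genes that interferon-gamma is known to induce, 5 of 21 tested fell and 0 rose. Fold changes were below 0 in 17 of the 21, with a median of -0.52, and 9 fell without Toxf/fPdcd1Cre replicate 1. Cxcl9, a chemokine that attracts activated T cells through Cxcr3, had 8.68, 4.66 and 6.33 CPM in Toxf/fPdcd1Cre libraries, against 43.0 and 32.1 CPM in Toxf/f libraries. It fell 5.73-fold (adjusted p = 0.000474, edgeR) and passed without any 1 of the 5 libraries. Cxcl10, a chemokine for the same receptor, had 18.5, 8.81 and 10.5 CPM in Toxf/fPdcd1Cre libraries, against 47.8 and 29.2 CPM in Toxf/f libraries. It fell 3.06-fold (adjusted p = 0.0172, edgeR).

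The other 3 belong to antigen presentation by MHC class I. H2-K1 averaged 399 ± 50.7 CPM (SD, n = 3) in Toxf/fPdcd1Cre libraries and 802 ± 95.2 CPM (SD, n = 2) in Toxf/f libraries, and fell 2.01-fold (adjusted p = 0.00682, edgeR). H2-D1 averaged 422 ± 56.95 CPM (SD, n = 3) in Toxf/fPdcd1Cre libraries and 717 ± 66.1 CPM (SD, n = 2) in Toxf/f libraries, and fell 1.70-fold (adjusted p = 0.0291, edgeR). These genes resemble each other, so reads may have been split between them. Tapbp, the gene of tapasin, which loads peptides, averaged 130.0 ± 5.74 CPM (SD, n = 3) in Toxf/fPdcd1Cre libraries and 197 ± 2.24 CPM (SD, n = 2) in Toxf/f libraries, and fell 1.51-fold (adjusted p = 0.0328, edgeR).

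Genes better known as targets of type I interferon included some of the larger falls. Of 26 tested, 8 fell and 0 rose, with a median of -1.001, and 23 fell without Toxf/fPdcd1Cre replicate 1. Oas2, an enzyme that senses double-stranded RNA, fell 3.84-fold (adjusted p = 0.00229, edgeR), and its relative Oasl1 fell 2.85-fold (adjusted p = 0.0293). Ly6a, a surface protein known as Sca-1, fell 2.35-fold (adjusted p = 0.00297). The ADP-ribosyltransferase gene Parp14 fell 1.76-fold (adjusted p = 0.0134). Zbp1 averaged 29.4 ± 9.50 CPM (SD, n = 3) in Toxf/fPdcd1Cre libraries and 74.1 ± 2.07 CPM (SD, n = 2) in Toxf/f libraries, and Irf7 averaged 29.0 ± 11.5 CPM (SD, n = 3) in Toxf/fPdcd1Cre libraries and 70.3 ± 9.17 CPM (SD, n = 2) in Toxf/f libraries.

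The machinery that works with the GTPases had a median near 0. Of 20 tested genes for autophagy proteins that load GBPs and IRGs onto vacuoles and for inflammasome proteins downstream, 0 passed in either direction in edgeR's quasi-likelihood test (lowest adjusted p = 0.237), and the median was -0.02. Without Toxf/fPdcd1Cre replicate 1, 1 passed as lower. Over the family and pathway lists, 20 of 109 tested genes fell and 0 rose. The lists overlap in what they are known for, since most genes induced by interferon-gamma also respond to other interferons.

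Leaving out libraries touched nearly all of these calls. Without Toxf/f replicate 3 each gene named here as fallen lost its call (adjusted p = 0.0657 to 0.470, edgeR), with the exceptions of Cxcl9 and Tox. Without the shared Toxf/f library each lost it (adjusted p = 0.0552 to 0.305), with the exceptions of Cxcl9, Nlrc5 and Tox. Without Toxf/fPdcd1Cre replicate 3 the calls of Gbp2, Irgm1, Iigp1, Usp18, Cxcl10, H2-D1, Tapbp, Parp14, Irf7 and Oasl1 were lost (adjusted p = 0.05004 to 0.159, edgeR). Without replicate 2 those of Irgm1, Tapbp and Oasl1 were lost (adjusted p = 0.0656, 0.0620 and 0.0541, edgeR).

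**Figure D5:**
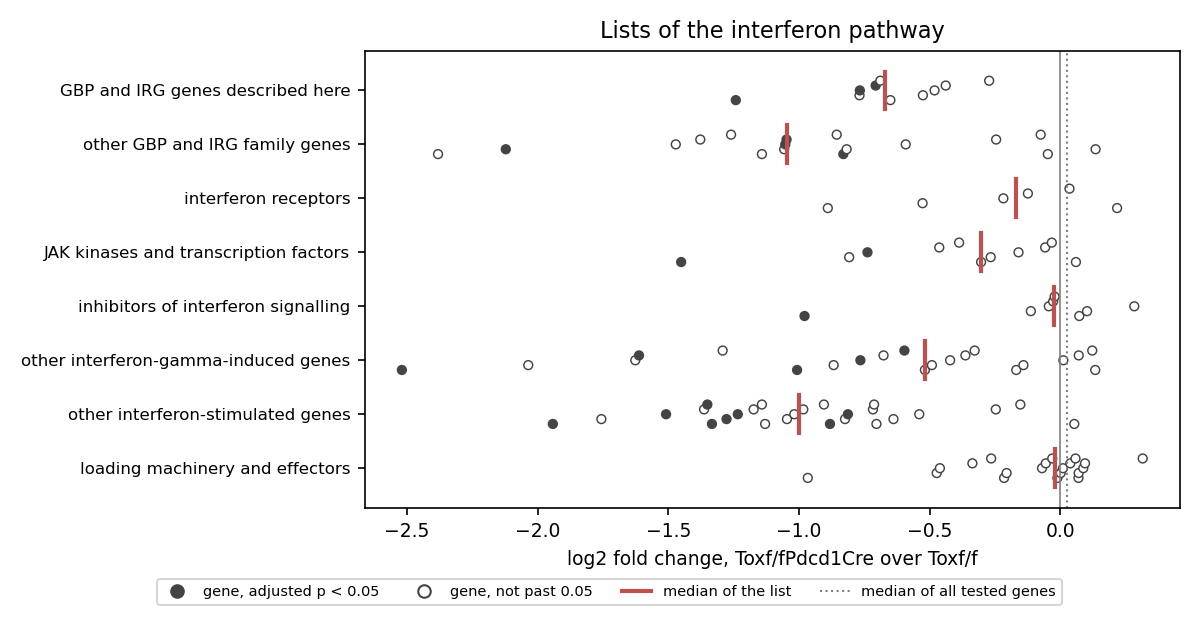
Log2 fold changes, Toxf/fPdcd1Cre over Toxf/f, of tested genes in each list of the interferon pathway; filled points passed at an adjusted p of 0.05, red bars are medians and the dotted line is the median of all tested genes. The medians lie at -0.67 for the 10 GTPase genes, -1.05 for other family genes, -1.001 for other interferon-stimulated genes and -0.02 for the loading machinery.

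The genes whose profile over the 5 libraries lay nearest to the mean profile of the 10 GTPases were found by the root-mean-square distance between centred log2 CPM values. The mean profile stood at -0.13, -0.37 and -0.29 in Toxf/fPdcd1Cre libraries and at 0.37 and 0.43 in Toxf/f libraries. Among 9336 other genes with a mean of at least 10 CPM the nearest was Cd53, a tetraspanin of leukocytes, at a distance of 0.026. Next came Cd44, a hyaluronan receptor, at 0.0451, Ncoa7, a nuclear receptor coactivator, at 0.0462, B2m, the light chain of MHC class I, at 0.0658, and Cmtm3 at 0.0671. Cd53, Cd44 and Ncoa7 were lower with log2 fold changes of -0.61, -0.67 and -0.73 (adjusted p = 0.0367, 0.0437 and 0.0252, edgeR), and each of these calls was lost without Toxf/fPdcd1Cre replicate 2 or 3 (adjusted p = 0.0570 to 0.175) and without either Toxf/f library (adjusted p = 0.209 to 0.371). B2m and Cmtm3 stood at -0.68 and -0.67 (adjusted p = 0.0602 and 0.116, edgeR). These genes were picked from the same 5 libraries for likeness to a profile that is lower in Toxf/fPdcd1Cre. A fall of about that size was therefore set by the choice, and their p-values are no separate evidence. Of the 10 GTPase genes themselves Gbp6 was nearest to the mean profile, at 0.0991, and Iigp1 furthest, at 0.419. Among the 9336 other genes, 24 lay nearer to it than Gbp6 and 6198 nearer than Iigp1. With 5 libraries a distance is a description.

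Markers of other cells moved beside the GTPases, and their part in the result was not tested. The summed level of 10 dendritic cell markers ranged from 726 to 944 CPM in Toxf/fPdcd1Cre libraries and from 1425 to 1638 CPM in Toxf/f libraries, and 4 of 10 were lower. Its most abundant members, Cd74 and H2-Eb1 of MHC class II presentation, were both lower and made up most of the sum. Cd74 averaged 594 ± 64.7 CPM (SD, n = 3) in Toxf/fPdcd1Cre libraries and 992 ± 77.8 CPM (SD, n = 2) in Toxf/f libraries. Ccl22 and Flt3 were also called lower. The remaining dendritic cell markers were not called, with log2 fold changes from -0.78 in Zbtb46 to 0.20 in Cd209a. The sum of 10 macrophage and monocyte markers, led by Lyz2 and C1qb, ranged from 467 to 606 CPM in Toxf/fPdcd1Cre libraries and from 784 to 888 CPM in Toxf/f libraries, with 0 of 10 called. The sum of 10 B cell markers, led by Ighm and Igkc, ranged from 568 to 716 CPM in Toxf/fPdcd1Cre libraries and from 793 to 964 CPM in Toxf/f libraries, with 1 of 10 lower. In these 3 lists the sums of the genotypes did not overlap, though single abundant genes weighed heavily. Igkc, the B cell marker that was called, averaged 12.1 CPM in Toxf/fPdcd1Cre and 133 CPM in Toxf/f libraries. Cd79b and Ebf1 stood above 0 at log2 fold changes of 0.07 and 0.31, and the list's median was -0.51. Lyz2 averaged 179 CPM in Toxf/fPdcd1Cre and 390 CPM in Toxf/f libraries. Adgre1 and Fcgr1 stood above 0 at 0.29 and 0.12, and the macrophage median was -0.29.

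In the other 5 lists the sums of the genotypes overlapped. The sum of 10 thymic epithelial markers, led by Prss16 and Ccl25, ranged from 2455 to 2695 CPM in Toxf/fPdcd1Cre libraries and from 2175 to 2488 CPM in Toxf/f libraries, with 1 lower. That of endothelial cells and fibroblasts, led by Pecam1 and Col3a1, ranged from 501 to 716 CPM in Toxf/fPdcd1Cre libraries and from 460 to 539 CPM in Toxf/f libraries, with 0 called. That of natural killer and cytotoxic cells, led by Gzma and Ccl5, ranged from 119 to 214 CPM in Toxf/fPdcd1Cre libraries and from 119 to 126 CPM in Toxf/f libraries, with 1 lower and 2 higher of 9 tested. Mature T cell markers, led by Cd8a and Cd8b1, summed to between 3593 and 4667 CPM in Toxf/fPdcd1Cre libraries and between 3797 and 4548 CPM in Toxf/f libraries. Their sum rests mostly on Cd8a, Cd8b1 and Cd4, while 6 of the 10 genes were lower and the median log2 fold change was -0.99, beside -0.74 for dendritic cell markers. Among the 6, named after their values were seen, the homing receptor Ccr7 averaged 21.5 ± 7.14 CPM (SD, n = 3) in Toxf/fPdcd1Cre libraries and 98.03 ± 10.87 CPM (SD, n = 2) in Toxf/f libraries. Foxp3, the factor of regulatory T cells, averaged 0.271 ± 0.235 CPM (SD, n = 3) in Toxf/fPdcd1Cre libraries and 8.57 ± 1.72 CPM (SD, n = 2) in Toxf/f libraries. Markers of immature double-negative thymocytes, led by Rag1 and Bcl11b, summed to between 5652 and 6923 CPM in Toxf/fPdcd1Cre libraries and between 5373 and 5714 CPM in Toxf/f libraries, with 1 of 10 lower. No marker on the 8 lists was at 0 over all libraries. Transcripts of Cd8a, Cd8b1 and Cd4, whose proteins these cells lack by name, were abundant, so double-negative is used here as a label only.

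The targeted gene was checked in each genotype. Tox averaged 16.5 ± 2.69 CPM (SD, n = 3) in Toxf/fPdcd1Cre libraries and 113 ± 11.5 CPM (SD, n = 2) in Toxf/f libraries (log2 fold change -2.78 ± 0.161 SE, adjusted p = 6.72e-06, edgeR). The exact permutation test of Tox (two-sided, 3 against 2 libraries) gave p = 0.1, which is the smallest value possible here. The total estimated count per library ranged from 14245492 to 16199195.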

How the data were processed

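Each of the 6 samples has a table of 22298 genes, in which the authors give estimated counts (expected counts) and FPKM values, per the file headers. StringTie 1.3.1, HISAT2 and fastp 0.18.0 are named in the submitters' processing notes. What each tool did, the genome build and annotation, how reads were counted and whether strand was used is not given in the sources used here. Estimated counts as deposited were not whole for 8.81% to 9.84% of genes per library and were rounded.

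The files of Toxf/f replicates 1 and 2, both headed as number 2, held identical values and were counted as 1 library, which left 3 against 2. Genes were filtered with filterByExpr, which kept 14121, scaled by TMM and tested with edgeR 4.0.16 in R 4.3.3 by the quasi-likelihood test, with no covariate and Benjamini-Hochberg adjustment over all tested genes at a threshold of 0.05. CPM values use TMM-scaled library sizes. The test was checked on simulated counts. For likeness, log2 CPM was computed with a prior count of 0.5.

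The members and lists were chosen with earlier results of these data known. Named genes are the 10 members, Tox, every tested gene of the other-family list, up to 6 genes past the threshold per pathway list, a fixed set of signalling genes, the 2 most abundant genes per marker list and the 5 genes nearest in profile. A gene that the rule gave is not reported here. The 8 pathway and family lists named 121 genes, of which 120 matched. Coordinates are those of GENCODE M21 on GRCm38, which is not known to be the build of the files. There were 19 alternatives, 17 planned and 2 added after the data were seen, with DESeq2 1.42.0 and limma 3.58.1 among them.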

Additional observations from a re-analysis of the deposited data

How the results depend on the processing

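All 189 fold changes of the 10 GTPase genes over 19 alternatives were below 0 (-1.56 to -0.21), and Tox passed in each (log2 fold change -2.94 to -2.58). The number of GTPase genes that passed moved from 3 of 10 to 1 with upper-quartile factors, 6 with no filter on low counts, 8 with DESeq2, 5 with limma-voom, 1 on log2(FPKM + 0.1), 0 on log2(FPKM + 1) with no filter, 1 with age as a covariate and 7 with the identical files counted separately. It was 0 to 6 when each library was left out. Of the 109 pathway and family genes, 20 passed as lower; this was 38 with no filter, 33 with DESeq2, 11 on log2(FPKM + 0.1), 1 on log2(FPKM + 1) with no filter, and 1 to 47 leaving out each library. Of all genes 232 were called; this was 417 with no filter (369 lower, 48 higher), 359 with DESeq2 (43 higher), 126 on log2(FPKM + 0.1) (120 lower, 6 higher), 44 on log2(FPKM + 1) with no filter (43 lower, 1 higher), 125 with age (116 lower, 9 higher), 380 with the identical files counted separately (325 lower, 55 higher), and 31 to 606 (28 to 586 lower, 2 to 30 higher) leaving out each library. The higher genes were also 9 with upper-quartile factors and 8 on log2(FPKM + 1). Where a library is left out so that 1 Toxf/f library remains, it is assumed to vary like the others. The causes were not tested.

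Whether the replicate number pairs the samples cannot be decided from these values. With 2 Toxf/f libraries the deviations of one mirror those of the other (correlation -1). Deviations from the genotype means correlated at -0.174 between the shared Toxf/f library and Toxf/fPdcd1Cre replicate 1, at 0.0876 with replicate 2, and at -0.147 between both replicates 3. With the replicate block, the shared library as replicate 1, 7 GTPase genes passed, 33 pathway and family genes and 435 of all genes (340 lower, 95 higher). With the replicate block and the shared library as replicate 2, the number in its headers, a setting chosen after seeing the data, 7, 50 and 868 genes passed (769 lower, 99 higher). In both settings a Toxf/fPdcd1Cre library has no Toxf/f partner in its block. The block also leaves very little from which to measure the spread between libraries, so these larger numbers are no stronger evidence.

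Signs changed for 3 named genes near 0, none of them called. Jak1 was 0.0472 with the block as replicate 2, and -0.14 to 0.0077 leaving out each library (above 0 without Toxf/fPdcd1Cre replicate 1). Gbp8 was 0.0449 with the block as replicate 2, and -0.17 to 0.0065 leaving out each library (above 0 without the shared Toxf/f library or Toxf/fPdcd1Cre replicate 1). Gbp11 was 0.0599 with the replicate block, and -0.27 to 0.0703 leaving out each library (above 0 without the shared Toxf/f library or Toxf/fPdcd1Cre replicate 2 or 3). Depth limits the ligand genes, whose counts were 6 or fewer in each library. Of the 19 settings none moved the median fold change of all genes by over 0.1.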
